A study of Homo sapiens with 5 samples.

Results

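Genomic imprinting is the expression of a gene from only the maternal or only the paternal copy, and it is set by DNA methylation that differs between the parental chromosomes. At a germline differentially methylated region the mark is laid down in egg or sperm and kept in the embryo, often over a CpG-rich promoter that is active on the unmethylated copy. The zinc finger protein ZFP57 binds a methylated hexamer in such regions and helps to keep the mark, CTCF binds the unmethylated copy of the H19 control region, and YY1 binds repeated sites in the PEG3 region. CpG-rich promoters are also places where DNA replication commonly starts, so imprinted promoters place these features of chromatin and replication on one sequence.

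The imprinted loci described here were 10 genes fixed by name: H19, IGF2, KCNQ1, KCNQ1OT1, SNRPN, GNAS, MEG3, PEG3, PEG10 and MEST. Each was taken as its GENCODE version 44 gene record on hg38, and every called interval that overlapped the record or lay within 10 kb of its 5′ end was counted. That rule took 44 of 23905 origins called after a 3-hour ini-seq 2 reaction, 9 of 10181 called after 15 minutes, 200 of 147657 SNS-seq peaks from nascent strands of 0.5-2 kb and 260 of 184966 from strands of 2-4 kb. KCNQ1OT1 lies antisense within KCNQ1, so its origins belong to both genes and were counted once in these totals.

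All lists came from EJ30, a human bladder carcinoma cell line, and no treated or altered cells were compared. In ini-seq 2, late G1 nuclei from mimosine-arrested cells start replication in cytosolic extract from HeLa cells with Br-dUTP in place of dTTP, and the heavy-light (HL) replicated DNA is parted from light-light (LL) unreplicated DNA on caesium sulfate gradients. SNS-seq instead sequences short nascent strands from cells, with genomic DNA of EJ30 as the input. Each condition was 1 list, the 3-hour list having been called on 2 pooled biological replicates, so no spread between replicates could be given and no difference between conditions was tested. Nuclei in a reaction with extract and 1 tumour cell line limit what these lists stand for, the reads were not split by parental copy, and whether each gene is imprinted or methylated in EJ30 was not measured here.

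The 3-hour list gives an efficiency for each origin, the fraction HL/(HL + LL) of its reads, which was at least 0.8 for every called origin and had a median of 0.873 over the list. The authors split origins into 3 classes of equal size, low, medium and high efficiency, and the same split of the deposited values put the limits at 0.842 and 0.906. The 15-minute list gives a Z-score, a standardised value that ran from -2.05 to 2.87, and the SNS-seq lists give positions alone. These scales were never set against each other.

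The sequences below are stretches of the origins at PEG3, GNAS and MEST, and the promoter of SNRPN, where no ini-seq 2 origin was called. All were read from hg38, 5′ to 3′ along the gene, and all avoid annotated untranslated exons. Capitals mark the ZFP57 hexamer TGCCGC on either strand, or in PEG3 the YY1 core AANATGGCG on either strand alone. The hexamer was in the central 300 bases of 25% of all 3-hour origins and the YY1 core in those of 1.89%, and a match is a string of letters, not a shown binding site.
PEG3, chr19:56840201-56840500, minus strand, first intron, the whole 15-minute origin: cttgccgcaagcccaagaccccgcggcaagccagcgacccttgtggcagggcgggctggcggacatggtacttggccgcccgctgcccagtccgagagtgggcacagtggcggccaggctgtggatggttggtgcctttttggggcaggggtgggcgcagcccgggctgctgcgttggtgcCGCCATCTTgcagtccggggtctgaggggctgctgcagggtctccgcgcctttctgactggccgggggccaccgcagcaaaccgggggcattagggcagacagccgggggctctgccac
GNAS, chr20:58890436-58890735, plus strand, between the exon A/B and Gsα starts: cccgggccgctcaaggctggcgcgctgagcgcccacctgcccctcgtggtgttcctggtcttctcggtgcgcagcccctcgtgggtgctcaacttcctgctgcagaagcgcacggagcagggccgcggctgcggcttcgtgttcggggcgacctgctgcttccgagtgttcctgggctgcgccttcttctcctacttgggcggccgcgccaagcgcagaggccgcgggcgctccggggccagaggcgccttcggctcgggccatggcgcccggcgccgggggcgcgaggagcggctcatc
MEST, chr7:130491805-130492084, plus strand, the 280 bases upstream of the canonical start cluster: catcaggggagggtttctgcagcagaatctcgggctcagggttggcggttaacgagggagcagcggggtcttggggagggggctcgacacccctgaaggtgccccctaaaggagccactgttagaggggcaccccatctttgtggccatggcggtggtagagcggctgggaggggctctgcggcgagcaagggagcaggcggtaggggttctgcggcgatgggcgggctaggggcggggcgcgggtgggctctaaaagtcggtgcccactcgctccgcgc
SNRPN, chr15:24954635-24954934, plus strand, the 300 bases upstream of the canonical start: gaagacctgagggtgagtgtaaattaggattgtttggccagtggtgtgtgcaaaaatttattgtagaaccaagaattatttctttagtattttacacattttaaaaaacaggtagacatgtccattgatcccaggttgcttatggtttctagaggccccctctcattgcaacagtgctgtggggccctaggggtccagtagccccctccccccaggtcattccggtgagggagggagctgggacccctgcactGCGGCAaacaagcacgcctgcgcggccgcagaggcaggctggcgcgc

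These stretches differ in base composition as well as in calls. Their GC content was 70.7% for PEG3, 73.7% for GNAS and 67.9% for MEST, against 52.7% for SNRPN. CpG dinucleotides numbered 21, 37 and 20 in the same order, and 8 in the 300 bases of SNRPN. The hexamer occurred 3 times in the stretch of PEG3, where it is left in lower case, 1 time in that of SNRPN and not in those of GNAS and MEST. The YY1 core occurred 1 time in that of PEG3, and 1 of the 3 hexamers there overlaps it.

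At 3 hours 8 of the 10 genes held at least 1 origin, H19 and SNRPN being without, where 52.5% of 38899 coding and lncRNA genes held one by the same rule. Genes with long records have more room for an origin, so the count at the start is the closer comparison. An origin lay over or within 1 kb of the 5′ end of the record for 5 of 10 genes (IGF2, KCNQ1, KCNQ1OT1, PEG3 and PEG10), a share of 50% with an exact 95% interval of 18.7 to 81.3%, beside 38.3% of all these genes. Several records begin at a minor upstream transcript, and with any annotated transcript start allowed the count was 8 of 10, adding GNAS, MEG3 and MEST, beside 42.4%. The interval for the 5 of 10 covers counting error only and takes in the 38.3% of all genes. No interval is given for the 8 of 10.

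At 15 minutes 5 of 10 genes held an origin, IGF2, KCNQ1, GNAS, PEG3 and MEST, beside 36.3% of all coding and lncRNA genes. Only KCNQ1 and PEG3 had one within 1 kb of the 5′ end of the record, 2 of 10 beside 26.1%. With any transcript start allowed the count was 5 of 10, beside 29.4%, so the count lies below or above the share over all genes by the start used. For SNS-seq, 9 of 10 genes held peaks in each fraction, H19 alone having none, beside 77.6% of all genes for 0.5-2 kb and 76.2% for 2-4 kb. Near the start 8 of 10 had one within 1 kb of the 5′ end of the record in each fraction, beside 49.5% of all genes for 0.5-2 kb and 57% for 2-4 kb.

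**Figure D1:**
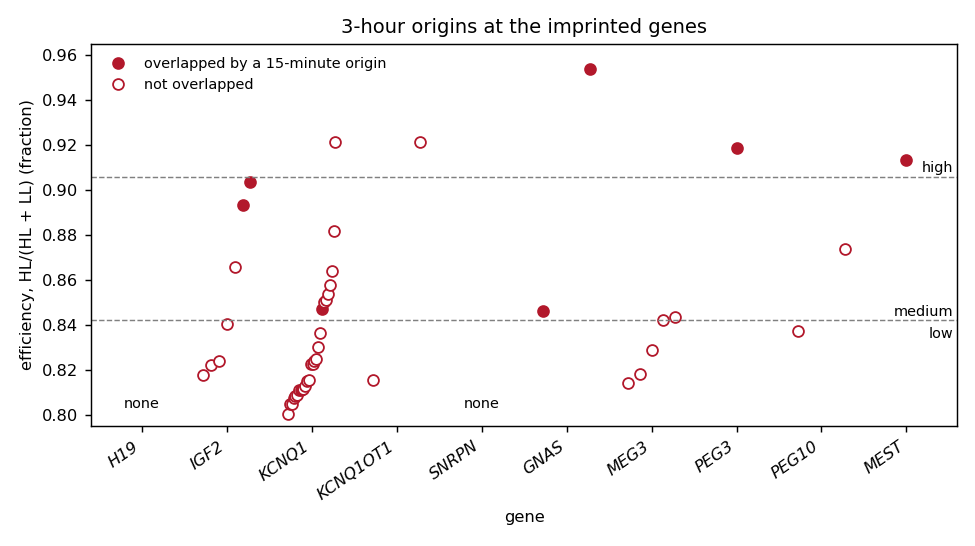
Efficiency (a fraction from 0.8 upwards, vertical axis) of every 3-hour origin at the 10 genes (horizontal axis), with 1 point per origin, filled where a 15-minute origin overlapped it; the KCNQ1OT1 origins are also drawn under KCNQ1. Dashed lines are the class limits of 0.842 and 0.906, and the origins above the upper line are those of KCNQ1OT1, GNAS, PEG3 and MEST.

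Across the 44 origins the median efficiency was 0.83 (order-statistic 95% interval 0.822 to 0.846, from 0.8 to 0.954), below the list median of 0.873. By class, 26 were low, 14 medium and 4 high, so 9.09% were high where the whole list holds 33.3% by construction. KCNQ1 weighs heavily here. It supplied 24 of the 44 beyond those of KCNQ1OT1, none of them high and 17 low, with a median of 0.823. The interval of the median takes the origins as independent, although these 24 are neighbours in KCNQ1. The other 20 origins had a median of 0.843, with 4 high, 7 medium and 9 low.

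The 4 high efficiency origins each overlapped or lay within 1 kb of a promoter known to carry a maternal germline methylation mark. The highest, at 0.954, was a 4100 bp origin at GNAS, chr20:58888601-58892700, with 90.3% of the list below it. It reached into the A/B starts and also covered the Gsα starts, so its value cannot be assigned to either promoter alone. The others were the KCNQ1OT1 origin at 0.921, the PEG3 origin at 0.919 and the MEST origin at 0.913, with 74.2%, 72.8% and 70.1% of the list below them. Other promoters known for such a mark did not have a high origin: that of XLαs, within GNAS, had a medium one of 0.846, PEG10 had a medium and a low one, and SNRPN had none.

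KCNQ1OT1 is the paternally expressed long noncoding RNA that silences neighbouring genes in cis, and it starts in an intron of KCNQ1 on the opposite strand. All 14 of its annotated starts lie at chr11:2699982-2700003, inside a 1300 bp origin at chr11:2699601-2700900 with an efficiency of 0.921. A 0.5-2 kb peak of 2863 bp and a 2-4 kb peak of 4112 bp both lay over it. No 15-minute origin was called there, and the nearest was 125 kb away. It was the only one of the 4 high efficiency origins without a 15-minute call. Over the whole list 40.1% of 3-hour origins were overlapped by one, and the share within the high class was not computed here.

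GNAS encodes the stimulatory G protein subunit Gsα and, from upstream promoters, the neuroendocrine protein NESP55, the large variant XLαs and the untranslated A/B transcript. The 4100 bp origin reached into the A/B start cluster, 15 starts at chr20:58888413-58889227, and covered the Gsα cluster, 12 starts at chr20:58891302-58892333. It was already called at 15 minutes over 3400 bp with a Z-score of 0.78, the highest of the 9 at these genes. A second origin of 2300 bp, chr20:58853501-58855800, began 0.235 kb downstream of the XLαs cluster, had an efficiency of 0.846 and overlapped a 400 bp 15-minute origin with a Z-score of -1.52. Neither list had an origin at the NESP55 start, which lay 13.4 kb from the nearest 3-hour origin, yet SNS-seq peaks of 2749 bp and 3271 bp covered it in the 0.5-2 kb and 2-4 kb fractions. The promoters of 1 gene thus ranged from a high efficiency origin already called at 15 minutes to SNS-seq peaks alone.

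PEG3 encodes a paternally expressed zinc finger protein. Its 500 bp origin, chr19:56839901-56840400, lay in the first intron, 0.261 kb downstream of the cluster of 13 starts, with an efficiency of 0.919. The 15-minute origin, 300 bp with a Z-score of -0.583, lay closer to the starts, at 0.161 kb, and its sequence with the YY1 core is the one printed above. This was the only one of the 44 origins to hold that core, beside 4.28% of all 3-hour origins. SNS-seq peaks of 1826 bp and 4173 bp covered the origin and the starts.

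MEST, a paternally expressed gene of the alpha/beta hydrolase fold, has a record that begins 5.91 kb upstream of the canonical start cluster. The 700 bp origin, chr7:130491801-130492500, covered that cluster, chr7:130492085-130492472, with an efficiency of 0.913, and the 400 bp 15-minute origin inside it had a Z-score of 0.518. The origin held 6 ZFP57 hexamers in its 700 bp, where the 44 origins together averaged 1.04 per kb. The upstream start of the record had SNS-seq peaks of both fractions over it, and the nearest ini-seq 2 origin was 5.63 kb away.

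PEG10, derived from a retrotransposon, shares a bidirectional promoter with SGCE. Its origins lay on either side of the 8 starts at chr7:94656325-94656546, one of 600 bp ending 0.025 kb upstream with an efficiency of 0.874 and one of 800 bp 1.16 kb downstream with 0.837. The stretch between held the starts themselves. A single 2-4 kb peak of 3086 bp spanned the starts, and the nearest 15-minute origin was 146 kb away.

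SNRPN encodes a splicing protein and its promoter is the imprinting centre of the Prader-Willi region, expressed from the paternal copy. No ini-seq 2 origin of either time lay in its 155 kb record or within 10 kb of its start. The nearest 3-hour origins were 147 kb upstream, over the NPAP1 start with an efficiency of 0.877, and 221 kb downstream of the record, with 0.839. SNS-seq did give calls, 7 peaks of 0.5-2 kb and 11 of 2-4 kb. At the canonical starts, chr15:24954935-24955005, a 2-4 kb peak of 1712 bp covered the start and a 228 bp peak of the shorter fraction began 0.149 kb downstream. The kilobase around these starts had a GC content of 53.7% and a CpG observed/expected ratio of 0.661, against GC contents of 72.3% at KCNQ1OT1, 77.9% at the Gsα starts, 64.9% at MEST, 63.9% at PEG3 and 60.8% at PEG10. The CpG ratios there were 0.845, 0.931, 0.789, 0.66 and 0.724 in the same order, so that of PEG3, which has origins at both times, was level with that of SNRPN.

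**Figure D2:**
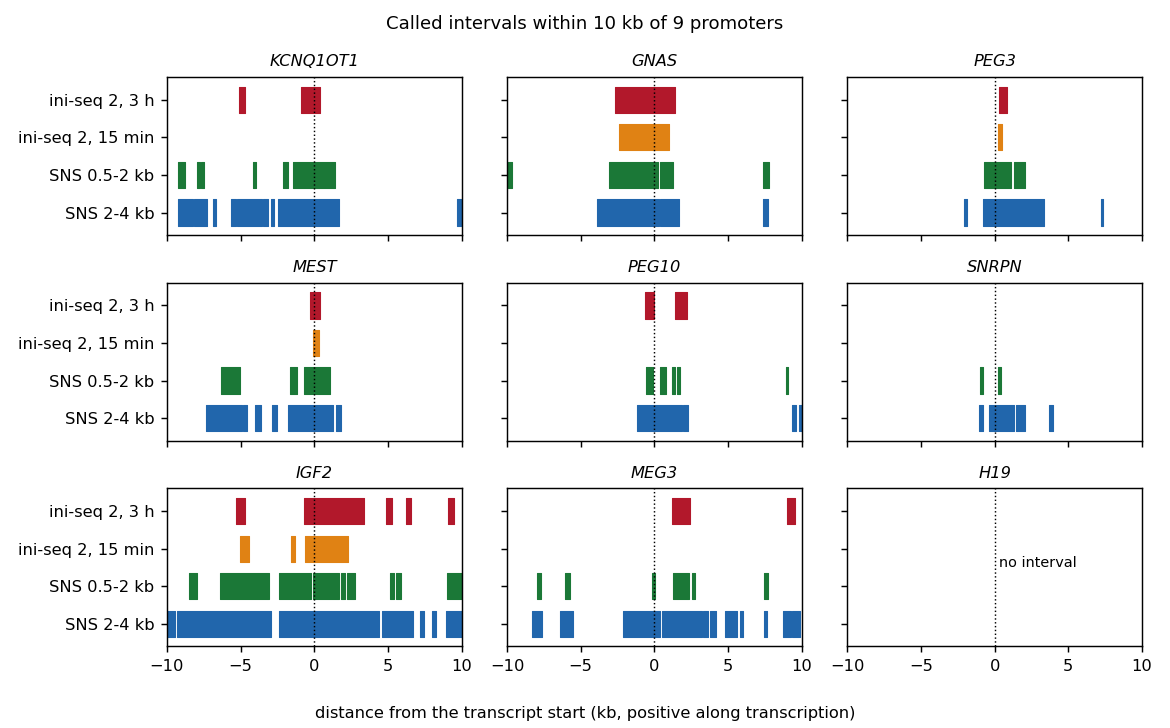
Called intervals of the 4 lists (rows) within 10 kb of the canonical start of 7 genes and of the start cluster with the most transcripts for MEG3 and H19, against distance from that start (kb, positive along transcription). KCNQ1OT1, GNAS, MEST and IGF2 have a 3-hour origin across the start, PEG3 and PEG10 beside it, SNRPN SNS-seq peaks only and H19 no interval.

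MEG3 and H19 are maternally expressed long noncoding RNAs, whose control regions carry methylation on the paternal copy. MEG3 had 5 origins of low or just medium efficiency, 0.818, 0.842, 0.829, 0.814 and 0.844 in the order of transcription, and none at 15 minutes. The cluster with most of its starts, 27 at chr14:100826098-100826195, was not covered, and the nearest origin began 1.11 kb downstream, chr14:100827301-100828500, with 0.829. The 2 origins upstream of the record lay 5.51 kb and 2.41 kb from its 5′ end. One further origin, with 0.83, lay 0.47 kb beyond the 3′ end and so just outside the rule. SNS-seq peaks of both fractions touched the main start cluster, and the window held 17 peaks of 0.5-2 kb and 31 of 2-4 kb.

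H19 had no interval of any list in its record or within 10 kb of its 5′ end. The interval-free stretch was chr11:1944645-2072701, 128 kb that also holds MRPL23, a mitochondrial ribosomal protein gene, and 2 lncRNA genes, MRPL23-AS1 and LINC01219. Taking each list alone, the gap around H19 was 178 kb in the 3-hour list, 300 kb at 15 minutes, 134 kb for the 0.5-2 kb peaks and 128 kb for the 2-4 kb peaks. The equally long stretches on the lower and higher side, at GC contents of 58.2% and 57.9% against 56.7% in between, held 61 and 72 peaks of 0.5-2 kb, 39 and 53 of 2-4 kb, and 21 and 15 3-hour origins.

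The base composition of this stretch was unusual for one without calls. Of 3706 interval-free stretches of at least this length in the genome it had the highest GC content, where the median was 37.1% and the next highest 55.5%. It contained 75 windows of 1 kb with a GC content above 60%, of which 0 met an SNS-seq peak, beside 86.2% of 54284 such windows in the genome, and 0 met a 3-hour origin, beside 48%. The MRPL23 start, with a GC content of 77.4% and a CpG ratio of 0.798 in the surrounding kilobase, lay in the stretch without an interval in any list. The windows are neighbours and not independent. Peak numbers ran without a gap through both SNS-seq lists, with 0 numbers missing. That covers only removal after numbering in those lists, and cannot show whether reads or regions were left out before it. Whether reads covered the stretch at all was not tested, since the genomic DNA sample was not analysed here, and an absence of calls in these lists is not a measured absence of initiation.

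**Figure D3:**
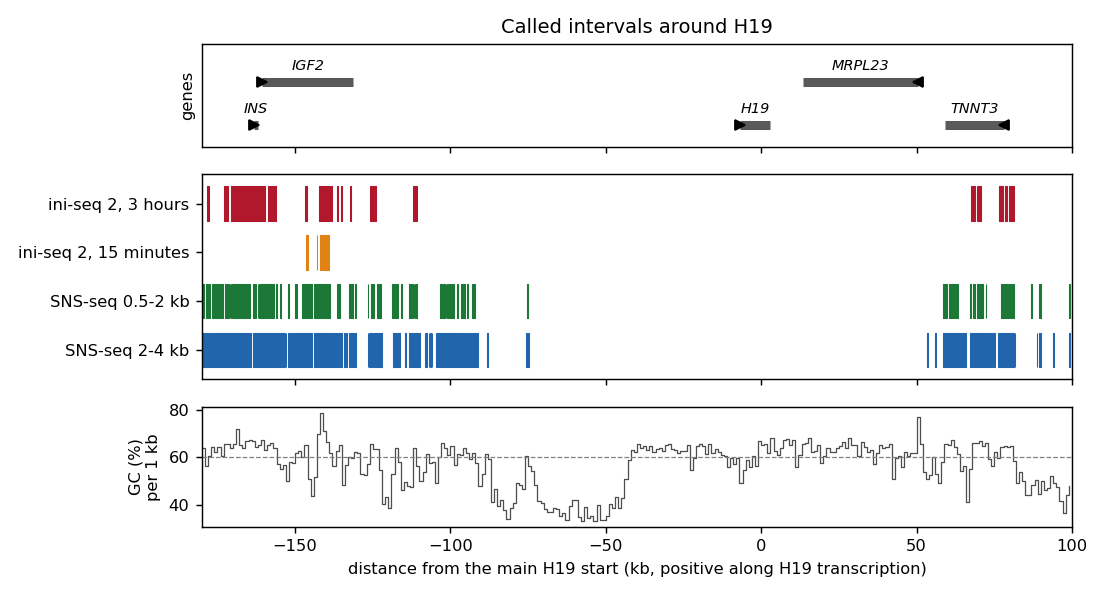
Genes (arrowheads at the 5′ ends), called intervals of the 4 lists and GC content per 1 kb window (percent, dashed line at 60%) against distance from the main H19 start (kb, positive along H19 transcription). The 128 kb around H19 holds no interval of any list, with dense intervals at IGF2 on one side and at TNNT3 on the other.

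The H19 control region is known for repeated CTCF sites. The CTCF core GGNGGCAG, searched on both strands, occurred 10 times in the 10 kb upstream of the cluster with most H19 starts, 15 at chr11:1997186-1997875. In 3890 stretches of 10 kb centred on starts of 1 in 10 coding and lncRNA genes the median was 4, and 8.05% held at least 10. The cores printed below have like flanks and are shown with 6 bases on either side, the core in capitals and on its own strand. The remaining cores of the 10 have other flanks and are not printed. The first of the following lines occurred 4 times, at distances of 2.09, 4.34, 4.74 and 5.14 kb from the start cluster, and the others at 2.9 and 2.5 kb.
Repeat at 4 positions, the nearest at chr11:1999968-1999975: ccgcgcGGCGGCAGtgcagg
Single position, chr11:2000780-2000787: ccgcgtGGCGGCAGtgcagg
Single position, chr11:2000374-2000381: ctgcgcGGCGGCAGtgcagg
Of the 10 cores, 0 lay in a called interval, and the nearest interval of any list was 53.6 to 60.6 kb away. All 10 lie inside the interval-free stretch described above, so this 0 follows from that stretch and is not a separate result. CTCF binding itself was not measured.

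IGF2, the paternally expressed growth factor controlled by the same region, lay in a stretch dense in calls. Its 7 origins covered 49.1% of its 39.3 kb window, where the list as a whole covered 0.799% of the genome, and the 2-4 kb peaks covered 89.8%, against 4.32%. The highest efficiency, 0.904 and just below the high class, belonged to a 4100 bp origin, chr11:2136001-2140100, over the canonical start cluster at chr11:2138974-2139389 and the neighbouring cluster at chr11:2137287-2137305. The longest, 11000 bp at chr11:2157501-2168500, covered the 5′ end of the record and the INS start with 0.841. At 15 minutes the first was called over 2900 bp with a Z-score of -0.458 and the long one was not called. A 300 bp 15-minute origin, chr11:2140701-2141000, ended 0.016 kb from a further start cluster with a Z-score of -1.63. It was the only one of the 9 that no 3-hour origin overlapped, though the 4100 bp origin ended close by, at chr11:2140100. The share without such an overlap over the whole 15-minute list was not computed here. Per the authors, nearly all origins called at the shorter time overlap one called at the longer time, and a small part do not. The third 15-minute origin of IGF2 had a Z-score of -1.55 and overlapped a 600 bp origin of 0.893.

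KCNQ1, which encodes a voltage-gated potassium channel subunit and is maternally expressed in early development, had 26 origins along 404 kb, or 6.27 per 100 kb of its window against 0.814 in the genome. The origin at its start, chr11:2444001-2446900, spanned 2900 bp with an efficiency of 0.847 and was called at 15 minutes over 1400 bp with a Z-score of -0.0549. The highest apart from that of KCNQ1OT1 was 0.882, over 1100 bp near the 3′ end. The only other 15-minute origin, 300 bp in an intron 131 kb into the gene, had a Z-score of -1.99, with 0.766% of that list below it. The lowest, 0.8, belonged to a 1300 bp intronic origin, also near the 3′ end. Of the 24 origins of KCNQ1 alone, 0 had the composition of a CpG island as defined below. The origin at the KCNQ1 start had a CpG ratio of 0.571 over its 2900 bp. The kilobase around that start had a GC content of 78.3% and a ratio of 0.8.

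The origins fell into blocks along the gene. From the KCNQ1 start to the 3′ end of KCNQ1OT1 there were 9 in 153 kb, and from the KCNQ1OT1 start to the end of KCNQ1 there were 15 in 148 kb. In the 102 kb between, the transcribed body of KCNQ1OT1, there were 0 apart from the origin at its own start. SNS-seq peaks were thinner there too, 11.8 per 100 kb for 0.5-2 kb and 17.7 for 2-4 kb, against 30.8 and 43.2 on the one side and 45.2 and 59.4 on the other. Between these parts GC content moved with the counts, at 42.9% in the body against 53.2% and 55.5%. Windows above 60% numbered 0, 54 and 53, and the part of GC content in the result was not tested. Within the first part, no ini-seq 2 origin lay between chr11:2448200 and chr11:2549101 either. There GC content per 1 kb window reached 63.9%, so the KCNQ1OT1 body was not the only long stretch of the gene without origins.

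**Figure D4:**
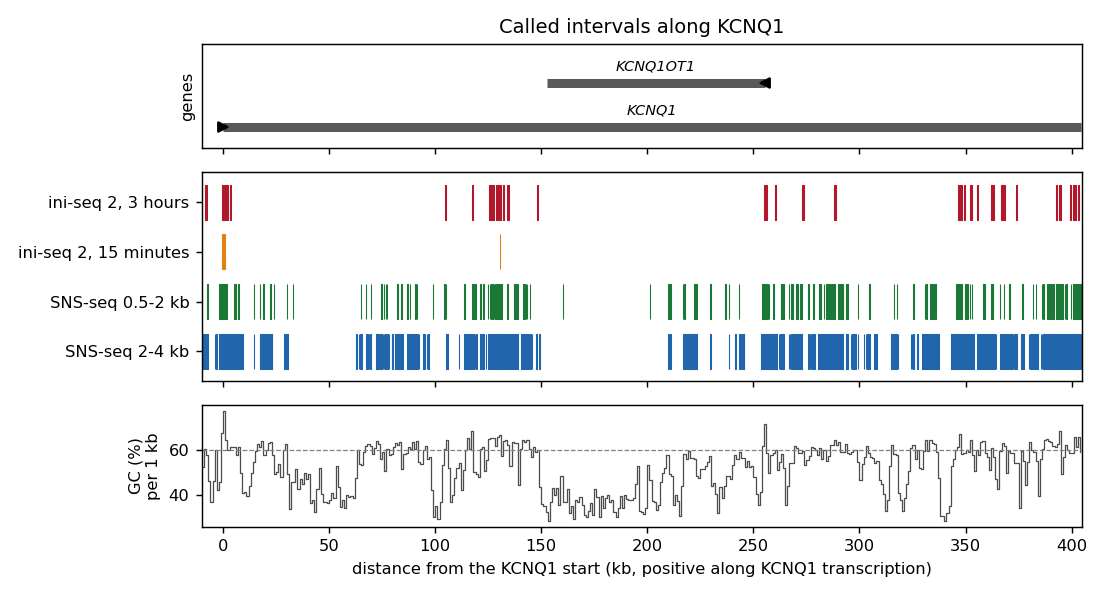
Genes (arrowheads at the 5′ ends), called intervals of the 4 lists and GC content per 1 kb window (percent, dashed line at 60%) against distance from the KCNQ1 start (kb, positive along KCNQ1 transcription). The transcribed body of KCNQ1OT1 is low in GC and holds 0 ini-seq 2 origins, while its start carries one.

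Base composition went with the 15-minute calls. A GC content above 50% with a CpG observed/expected ratio above 0.6, the composition of a CpG island, held for 8 of the 44 origins, or 18.2%, against 53.7% of the list, although the median GC content was 65.6% (order-statistic 95% interval 64.2 to 66.5%) against 67%. These were 3 origins of IGF2, both of GNAS and those at KCNQ1OT1, PEG3 and MEST. A 15-minute origin overlapped 6 of these 8 and 2 of the other 36, and in the whole list 66% and 10.2%. The other 36 include origins of MEG3, PEG10 and the KCNQ1 start with ratios of 0.599, 0.595 and 0.571. The split at these genes thus depends on the limit of 0.6, and the KCNQ1 start origin is 1 of the 2 overlapped. Over all 44 the overlap was 8, or 18.2% with an exact 95% interval of 8.19 to 32.7%, beside 40.1% of all 3-hour origins. That interval and the one for GC content take the origins as independent, although 24 of them are neighbours in KCNQ1. Of those 24, 2 were overlapped, or 8.33%, and of the other 20, 6 were, or 30%. Island composition held for 0 of the 24 and 8 of the 20, or 40%. The median Z-score of the 9 15-minute origins was -0.583, with 2 above 0, those of GNAS and MEST.

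The methods met at nearly every origin. All 44 had an SNS-seq peak within 5 kb, as did 97.6% of the list, and 42 were overlapped by one, 95.5% against 91.6%. The 2 without an overlap were the KCNQ1 origin at chr11:2717701-2718300 and the MEG3 origin at chr14:100837801-100838100, at efficiencies of 0.808 and 0.844. Runs that can form G-quadruplexes, 4 runs of at least 3 G on either strand with loops of up to 7 bases, were in 32 of the 44, or 72.7%, against 71%. The ZFP57 hexamer was in 24, or 54.5%, against 48.5%, at 1.04 per kb against 0.939. Both shares lay close to those of the list.

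**Figure D5:**
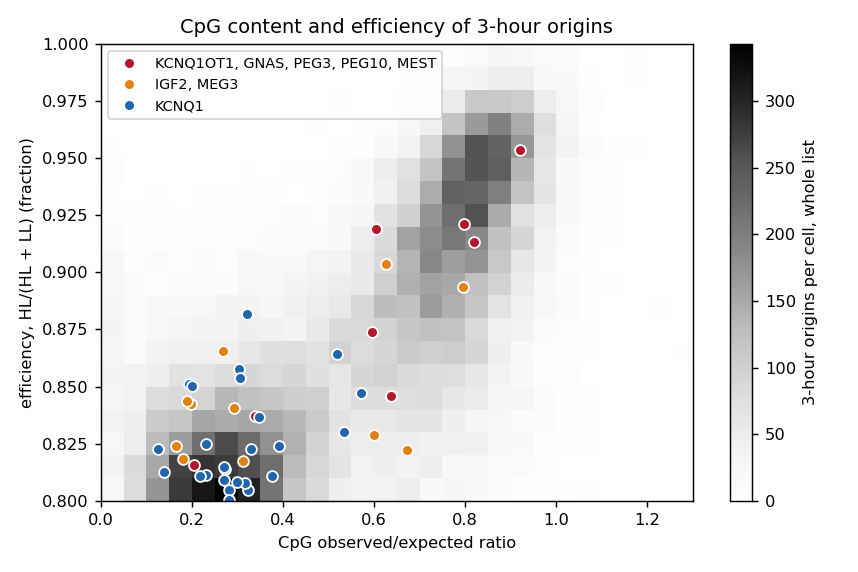
Efficiency (fraction) against CpG observed/expected ratio of the 3-hour origins at the imprinted genes, coloured by gene group, over the number of all 3-hour origins in each cell of a grid (grey scale). KCNQ1 origins lie at low ratios and mostly low efficiency, and the GNAS origin at 0.954 lies highest.

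A wider list of 48 other imprinted genes, all matched by symbol, had a 3-hour origin within 1 kb of the 5′ end in 26, or 54.2% with an exact 95% interval of 39.2 to 68.6%, where 38.3% of all coding and lncRNA genes did. The interval lies above that value, but most of the list codes for protein and several genes share a promoter, and no test was made. Genes of the same loci gave 16 of 28 and genes elsewhere 10 of 20. In the same loci the highest efficiencies were at KLF14 with 0.992, COPG2 with 0.971, UBE3A with 0.964, PPP1R9A with 0.96 and CDKN1C with 0.936. KLF14, COPG2 and PPP1R9A neighbour MEST or PEG10, UBE3A is the ubiquitin ligase gene of the Angelman syndrome region next to SNRPN, and CDKN1C is the cell cycle inhibitor gene next to KCNQ1. ZIM2 and MIMT1 share the PEG3 origin of 0.919, and MESTIT1 that of MEST. Some of the 26 thus rest on origins already counted at the main imprinted genes. The 15-minute list had an origin within 1 kb of 22 of the 48 starts, or 45.8% with an exact 95% interval of 31.4 to 60.8%, beside 26.1% of all coding and lncRNA genes.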

How the data were processed

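Per the authors' methods, reads were aligned to hg38 with bowtie2, reads without a unique position and PCR duplicates were removed, and ini-seq 2 origins were built from 100 bp windows whose HL reads passed LL reads by a log2 ratio of 2 or more, neighbours up to 500 bp apart being merged. The deposited 3-hour column is headed Z-score but holds the efficiency, a fraction of 0.8 to 1, while the deposited 15-minute column holds a score, the Z-score. SNS-seq peaks were called with MACS2 against genomic DNA and carry positions only, with the base at which their starts count not stated, so peak lengths are end minus start. The lists hold no read counts, so the depth behind each called origin or peak cannot be given from them. Intervals were compared with GENCODE version 44 in Python 3.11.15 with scipy 1.17.1 and pysam 0.24.0, and the searches were checked on simulated data. Transcript starts within 500 bp were joined into clusters. All 10 genes are named. In a gene with over 6 origins the text names the highest, the longest and those nearest starts, and of the other imprinted genes at most 8 of the same loci. The members and lists were chosen with earlier results of these data known. Unique alignment leaves repeated sequence without calls. Coordinates of methylated regions were not used here. One promoter sequence is not reported here.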

Additional observations from a re-analysis of the deposited data

How the results depend on the processing

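No paired analysis was possible because each condition is 1 list. Of 48 alternatives over 13 results, 33 left a count within 1.5 times or a median within its interval. With the gene body left out, the counts at the 10 genes were 13 origins at 3 hours, 3 at 15 minutes, 41 peaks of 0.5-2 kb and 56 of 2-4 kb. Without KCNQ1, an alternative chosen after seeing the data, they were 20 at 3 hours, 87 and 108, and 7 at 15 minutes. When an origin had to contain the 5′ end, the genes with one numbered 3 at 3 hours, 1 at 15 minutes and 17 of the 48 other imprinted genes. Any transcript start gave 8 genes at 3 hours and 5 at 15 minutes, and the canonical start gave 5 at 15 minutes. The efficiency was 0.85 as a mean weighted by length and 0.916 as the median of each gene's highest origin, against the main median of 0.83. The second takes the maximum of each gene, and without the origins of KCNQ1 alone the median was 0.843. The CTCF core count inside intervals was 0 under both alternatives, one of them, 10 kb upstream of the H19 record, added after seeing the data. Both stayed within the interval-free stretch around H19, so this 0 could not have differed. What depth limits at each origin could not be computed from lists without counts, and an origin below the calling threshold of 0.8 does not appear.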
